A study of Saccharomyces cerevisiae with 12 samples.

Results

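Transcript levels were compared between cultures of a budding yeast (Saccharomyces cerevisiae) strain that expresses NTT1 after extracellular ATP was added, and cultures of the same strain without it. The comparison rests on 6 RNA sequencing libraries of the 12 in the series, chosen by their labels alone: 3 from NTT1 cultures given 5 mM ATP for 1 h and 3 from untreated NTT1 cultures. The other 6 come from wild-type cultures with an empty vector, 3 with the same ATP treatment and 3 without, and they are used only where the strains are set side by side. Per the labels, the NTT1 strain has PH-NTT1 integrated in the genome, a BY29034 background and the QUEEN reporter, so treated and untreated NTT1 cultures share all of these. All cultures were in mid-log growth at 30 °C in complete synthetic medium. The labels name no vehicle for the untreated cultures and do not say whether the NTT1 cultures stem from a single clone. Expression of NTT1 and QUEEN was not analysed here, and the strain labels were therefore not checked from the counts.

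NTT1 comes from Encephalitozoon cuniculi, a microsporidian parasite that lives inside host cells and uses such transporters to take up their ATP. Secreted and cell-surface phosphatases of yeast can also cleave nucleotides in the medium. In yeast, glucose and other nutrients act through cyclic AMP and protein kinase A, which favour ribosome production and growth and hold back the stress factors Msn2 and Msn4 as well as the storage of glycogen and trehalose.

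The 6 libraries held 14845855 to 20714804 counts each. Pearson's r of log2 CPM (counts scaled to a common library size) across genes was 0.9942 to 0.9963 between treated replicates and 0.9916 to 0.9947 between untreated replicates. Between a treated and an untreated library it was 0.9849 to 0.9883. The first principal component held 54.1% of the variance and placed the treated libraries at 10.16 to 13.8 and the untreated ones at -13.95 to -9.735. Untreated replicate 3 stood apart on the second component, at -13.61, where the other 5 libraries lay between -2.408 and 7.096. In bulk libraries a lower level in every cell and fewer cells expressing a gene cannot be told apart.

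After 1 h of ATP, NTT1 cultures had lower levels of many transcripts of glycogen and trehalose synthesis, and of some of heat shock and glucose transport. Levels were higher for many transcripts of ribosome assembly, cell cycle regulators and RNA-binding regulators. Of 6105 genes tested, 950 passed an adjusted p of 0.05 (15.6%) in edgeR's quasi-likelihood test. Of these, 556 were higher with ATP (9.11%) and 394 were lower (6.45%). Of them, 91 (1.49%) differed at least 2-fold, an absolute log2 fold change of 1, with 37 higher (0.606%) and 54 lower (0.885%). With upper-quartile scaling the counts were 466 higher and 519 lower, which turned the split between directions round. The total was 585 without treated replicate 1 and 537 without treated replicate 3.

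The number called also depended on which libraries set the estimate of spread. A fit of all 12 libraries, which share 1 estimate of spread, called 275 of 6157 genes (4.47%) for the same comparison, 183 higher (2.97%) and 92 lower. Leaving untreated wild-type replicate 3 out of that fit gave 1030. Of the 950 genes, 273 were called in the 12-library fit as well (4.47% of those tested), 182 higher (2.98%) and 91 lower (1.49%), all with the same sign. The ranges of the groups did not overlap for 2220 genes (36.4%), including many that did not pass.

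**Figure D1:**
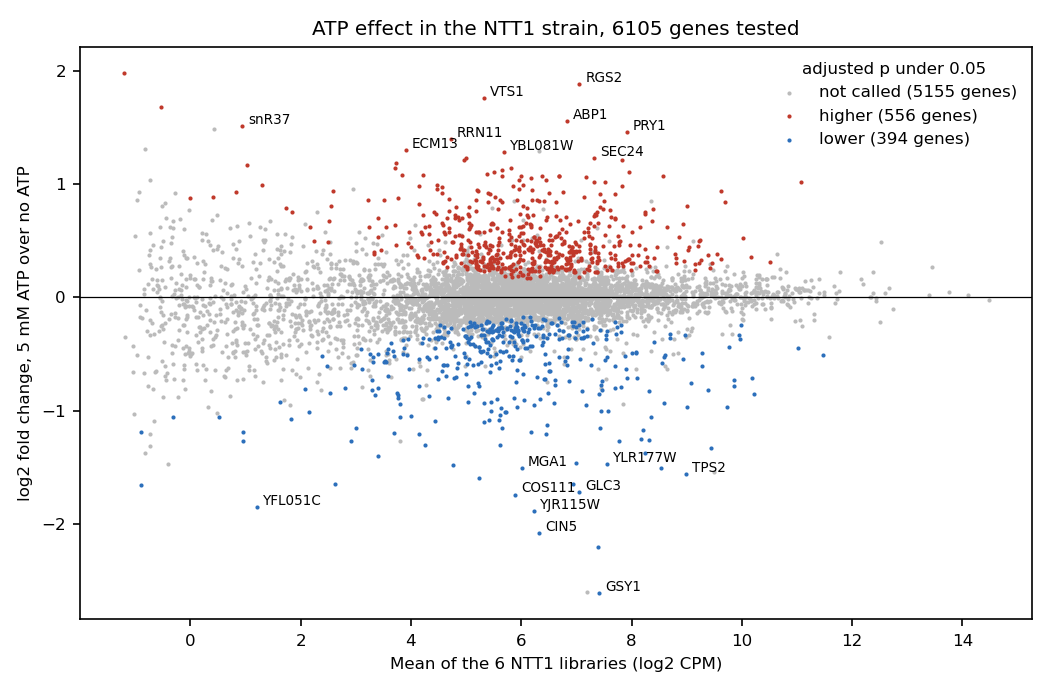
Log2 fold change of every gene tested (5 mM ATP over no ATP, NTT1 strain) against its mean level over the 6 NTT1 libraries in log2 CPM. Red points are the 556 genes called higher, blue points the 394 called lower and grey points the others; labels mark some of the largest changes that also passed with all 12 libraries.

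The largest rise among genes called in both fits was that of RGS2 (YOR107W, chromosome XV, 521353 to 522282), which encodes a GTPase-activating protein for the G protein Gpa2 of the glucose-sensing cyclic AMP pathway. It stood at 227, 169 and 228 CPM in the treated cultures and at 44.9, 50.8 and 73.6 CPM in the untreated ones. The largest rises and falls named here were chosen from genes whose groups do not overlap, so the absence of overlap in them is no separate result. The lowest treated culture was far above the highest untreated one. On the log2 scale RGS2 rose by 1.88 (SE 0.19, adjusted p 0.0014).

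VTS1 (YOR359W, chromosome XV, 1011189 to 1012760), which encodes an RNA-binding protein that promotes mRNA decay, followed. Its level was 61.6, 65.8 and 57.4 CPM with ATP and 20.5, 14 and 19.8 CPM without, and it rose by 1.76 on the log2 scale (SE 0.13, adjusted p 0.000717). ABP1 (YCR088W, chromosome III, 265068 to 266846), an actin-binding protein of endocytic patches, stood at 169, 191 and 151 CPM with ATP and 66.7, 42.6 and 63.7 CPM without. It rose by 1.56 on the log2 scale (SE 0.17, adjusted p 0.00141). For both genes the groups were well apart, and untreated replicate 2 was the lowest library.

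RRN11, a subunit of the core factor that loads RNA polymerase I onto ribosomal DNA, rose by 1.40 on the log2 scale (SE 0.14, adjusted p 0.00107), with 38.8, 34.1 and 41.5 CPM with ATP and 12.4, 13.5 and 17.5 CPM without. PRY1, which encodes a secreted sterol-binding protein, rose by 1.46 (SE 0.16), with 344, 375 and 342 CPM with ATP and 144, 94.4 and 146 CPM without. By the same choice, no treated and untreated values of these genes overlapped. MSA1, an activator of transcription at the G1/S transition, rose by 1.23 (SE 0.12), as did SEC24, the cargo-binding subunit of the COPII coat (SE 0.16). THR1, the homoserine kinase of threonine synthesis, and GAT1, a GATA activator of nitrogen-regulated genes, each rose by 1.21 (SE 0.13 for THR1 and 0.14 for GAT1). YFL021C_A, a feature on the other strand at GAT1, was also called higher, at 0.93 (5 of 6 fits with a library left out), and without knowledge of strand in the counting their reads cannot be told apart.

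The remaining rises among the 12 largest called in both fits were YBL081W, of unknown function, at 1.28 (SE 0.12), snR37 and ECM13. snR37, a small nucleolar RNA that guides pseudouridylation of ribosomal RNA, stood at 2.62, 2.92 and 2.92 CPM with ATP and 1.04, 0.754 and 1.16 CPM without, on a mean of 33.5 counts (log2 fold change 1.51, SE 0.21, adjusted p 0.00306). ECM13 rose by 1.30 (SE 0.26, adjusted p 0.0146). Its adjusted p reached 0.0506 when treated replicate 3 was left out, 0.0539 when untreated replicate 1 was and 0.0565 when untreated replicate 2 was.

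The largest fall was that of GSY1 (YFR015C, chromosome VI, 174265 to 176391), a glycogen synthase. Its level was 34, 71.8 and 36.2 CPM with ATP and 375, 271 and 226 CPM without. The highest treated culture, replicate 2, remained far below the lowest untreated culture. GSY1 fell by 2.61 on the log2 scale (SE 0.31, adjusted p 0.0019).

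CIN5 (YOR028C, chromosome XV, 383533 to 384420), a bZIP transcription factor linked to salt tolerance, stood at 18.5, 46.8 and 26.3 CPM with ATP and at 174, 138 and 78.5 CPM without. It fell by 2.08 on the log2 scale (SE 0.38, adjusted p 0.00895). YJR115W, a paralogue of ECM13, stood at 18.4, 49.8 and 26.7 CPM with ATP and at 153, 120 and 83.2 CPM without. It fell by 1.89 on the log2 scale (SE 0.35, adjusted p 0.0103), so this pair of paralogues moved in opposite directions. In CIN5 and YJR115W alike, treated replicate 2 was the highest treated library and untreated replicate 3 the lowest untreated one, with no overlap.

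TPS2, the trehalose-6-phosphate phosphatase, stood at 237, 300 and 237 CPM with ATP and 875, 713 and 691 CPM without, and it fell by 1.56 on the log2 scale (SE 0.13, adjusted p 0.000717). Its groups were well apart. GLC3, the glycogen branching enzyme, fell by 1.72 (SE 0.23) and the zinc-finger factor gene USV1 by 1.65 (SE 0.22). COS111 fell by 1.74 (SE 0.27), MGA1, whose product resembles heat shock factors, by 1.51 (SE 0.13), YLR177W, of unknown function, by 1.47 (SE 0.16), and AIM17 by 1.46 (SE 0.12).

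YFL051C was called lower as well, at 0.7, 1.51 and 0.679 CPM with ATP and 4.99, 3.54 and 2.32 CPM without (log2 fold change -1.85, SE 0.39, adjusted p 0.0168). Its adjusted p was 0.066 without treated replicate 1 and 0.0637 without treated replicate 3. HXT7, a high-affinity glucose transporter, completed the 12 largest falls called in both fits, at -1.51 (SE 0.19, adjusted p 0.00239). Its coding sequence is nearly identical to that of HXT6, so reads may be shared between them.

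**Figure D2:**
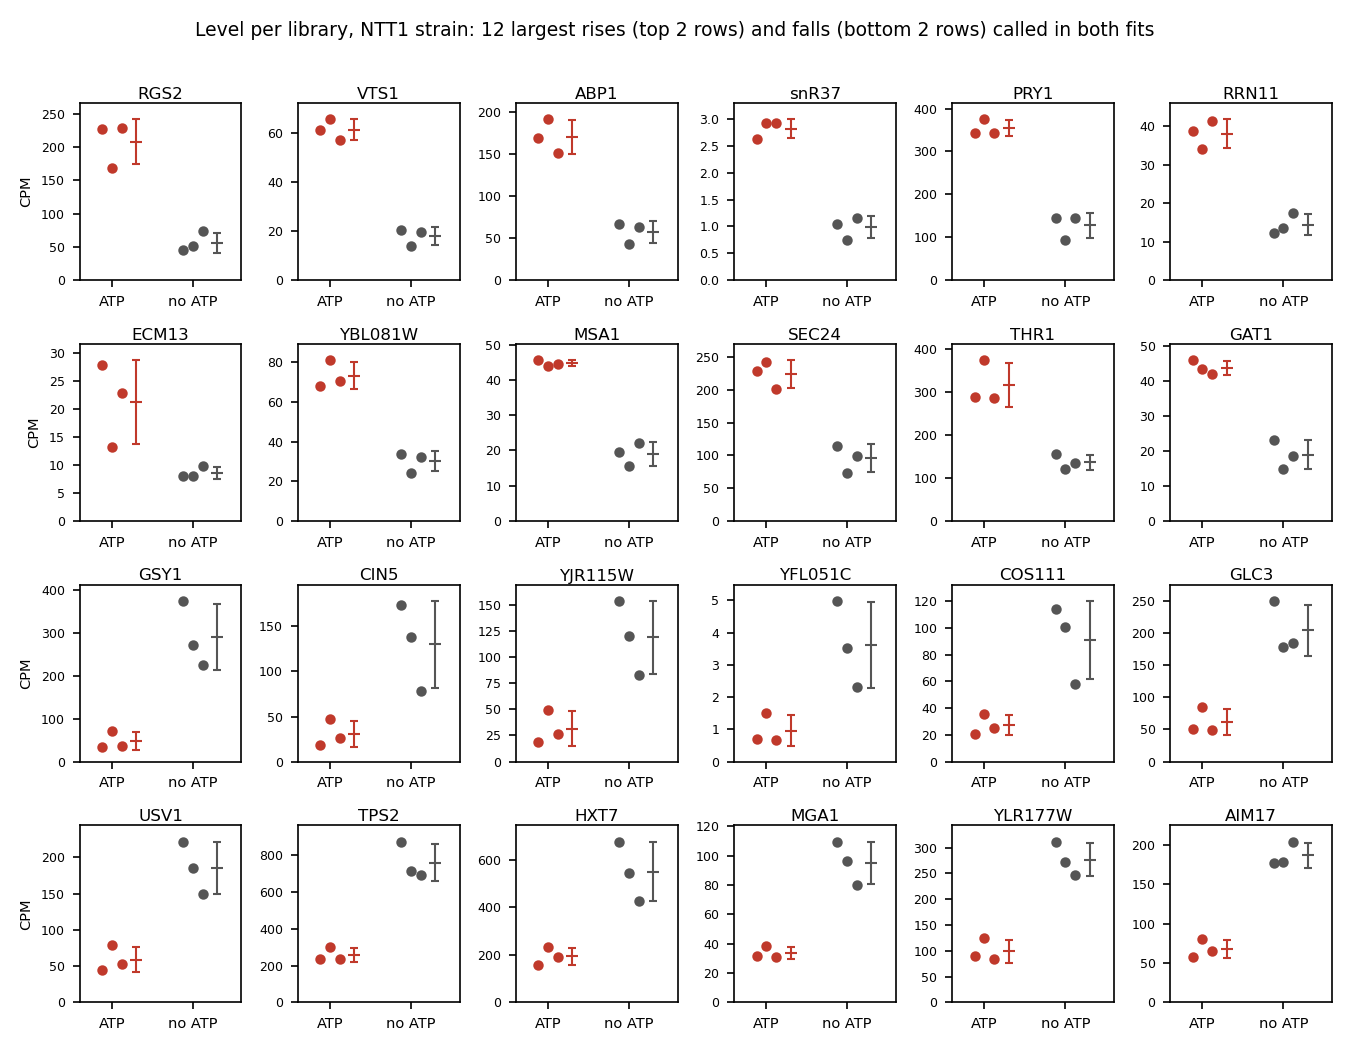
Level of the 12 largest rises and 12 largest falls that were called with 6 and with 12 libraries, in CPM, for the 3 treated (red, left) and 3 untreated (grey, right) NTT1 cultures. Each point is a library and the bar beside it is the mean with its SD. The 24 genes were chosen from those whose groups do not overlap, and RGS2 lies at 169 to 228 CPM with ATP against 44.9 to 73.6 CPM without.

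Most genes called in glycogen metabolism were genes of synthesis, and they fell. Of 16 genes of glycogen metabolism tested, 9 were lower with ATP and 0 higher, against 6.45% of all genes lower, and the median log2 fold change was -0.72, against 0.00015 over all genes. Besides GSY1 and GLC3 these were the second glycogen synthase GSY2 (-1.17, SE 0.094), the initiator glycogenin GLG1 (-1.19, SE 0.17), and GIP2 (-1.48, SE 0.16), PIG2 (-0.98, SE 0.13) and GAC1 (-0.95, SE 0.11), whose products bring the phosphatase Glc7 to its targets. PGM2, the main phosphoglucomutase, fell by 1.06 (SE 0.17) and UGP1, which makes UDP-glucose, by 0.44 (SE 0.086), though UGP1 passed in 5 of the 6 fits with a library left out. Genes that degrade glycogen did not pass. The glycogen phosphorylase GPH1 was at -0.49 (SE 0.26, adjusted p 0.25), and the debranching enzyme GDB1 was at 0.051 (SE 0.22, adjusted p 0.907). GSY1, GLC3, GLG1 and GAC1 were the 4 of these 9 genes called with all 12 libraries. Leaving out each NTT1 library in turn gave 8 to 10 genes.

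GSY2 illustrates the separation in a highly expressed member, with 184, 172 and 188 CPM with ATP and 461, 360 and 403 CPM without. The treated cultures lay close together and far below the untreated ones.

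Of the 7 trehalose genes, 4 were lower and 0 higher, against 6.45% of all genes lower, with a median of -0.63. Beside TPS2 these were TPS1, the trehalose-6-phosphate synthase, at 471, 462 and 515 CPM with ATP and 924, 784 and 846 CPM without (-0.82, SE 0.079, adjusted p 0.00107), the regulatory subunit gene TPS3 (-0.53, SE 0.06) and the trehalase NTH2 (-0.65, SE 0.074). The falls thus included genes of synthesis and of breakdown. TSL1, another regulatory subunit, was at -0.63 (SE 0.18, adjusted p 0.052), and the trehalases NTH1 and ATH1 at -0.28 and -0.12 did not pass. TPS2 and NTH2 were also called with all 12 libraries.

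Heat shock genes fell in part. Of 34 heat shock and chaperone genes, 8 were lower and 0 higher, 23.5% called against 6.45% of all genes called lower, with a median of -0.12. HSP42, a small heat shock protein that sorts aggregated proteins, stood at 197, 184 and 181 CPM with ATP and 413, 443 and 493 CPM without (log2 fold change -1.26, SE 0.079, adjusted p 0.000562). The disaggregases HSP78 of mitochondria and HSP104 of the cytosol fell by 0.82 (SE 0.088) and 0.73 (SE 0.093), and the J-protein APJ1 by 0.55 (SE 0.088). HSP12 and HSP26, 2 classical stress genes, did not pass and varied among libraries. HSP26 stood at 457, 287 and 502 CPM with ATP and 263, 298 and 790 CPM without, so the groups overlapped. Without treated replicate 3, 4 genes of the list were lower. HSP42, HSP104, APJ1 and CUR1 were the 4 called with all 12 libraries.

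In the general stress list, 9 of 31 genes were lower and 0 higher, 29% called against 6.45% of all genes called lower, with a median of -0.33. They include SDP1, a phosphatase of the MAP kinase Slt2 (-1.21, SE 0.14), PHM7 (-0.97, SE 0.10), the glucokinase GLK1 (-0.71, SE 0.11) and the nicotinamidase PNC1 (-0.61, SE 0.073). SDP1 and USV1 were the 2 called with all 12 libraries. Among 17 stress transcription factors, 6 were lower and 2 higher, 47.1% called against 15.6% of all genes. The number lower was 3 without treated replicate 1 and 3 without treated replicate 3. GIS1, a factor of the diauxic shift, fell by 1.13 (SE 0.21, adjusted p 0.0103), whereas RPH1, its paralogue, rose by 0.51 (SE 0.09, adjusted p 0.00771). Transcripts of MSN2 did not pass, at 0.14 (SE 0.081, adjusted p 0.304). Among peroxide defence genes, the cytochrome c peroxidase CCP1 fell by 0.40 (SE 0.07).

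Promoters of HSP42, TPS1 and GLC3 are shown because they carry the stress response element (STRE), to which Msn2 and Msn4 bind, and because these genes fell. Each line gives bases 300 to 91 before the start codon, 5′ to 3′ on the coding strand, from the RefSeq sequence of build R64, with STRE letters (AGGGG, or CCCCT on the other strand) in capitals. The windows are chrIV:806321-806530 (plus strand) for HSP42, chrII:490483-490692 (minus strand) for TPS1 and chrV:132820-133029 (plus strand) for GLC3.
HSP42: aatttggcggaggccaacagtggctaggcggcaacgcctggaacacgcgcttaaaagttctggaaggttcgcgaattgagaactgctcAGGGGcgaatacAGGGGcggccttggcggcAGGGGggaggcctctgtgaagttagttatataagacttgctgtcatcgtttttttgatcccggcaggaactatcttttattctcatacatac
TPS1: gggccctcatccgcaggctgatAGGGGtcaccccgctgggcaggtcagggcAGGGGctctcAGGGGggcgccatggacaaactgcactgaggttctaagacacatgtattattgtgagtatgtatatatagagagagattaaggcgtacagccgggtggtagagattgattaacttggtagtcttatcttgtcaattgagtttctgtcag
GLC3: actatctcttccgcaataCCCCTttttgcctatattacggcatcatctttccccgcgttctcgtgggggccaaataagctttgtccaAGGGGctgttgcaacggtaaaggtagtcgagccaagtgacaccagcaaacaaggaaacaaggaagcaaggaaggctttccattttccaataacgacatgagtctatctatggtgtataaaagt
HSP42 and TPS1 hold 3 matches each and GLC3 holds 2. Searched on both strands of the 300 bases before the start codon, the element was present in 52% of 383 promoters of genes called lower, in 17.9% of 547 promoters of genes called higher and in 22.2% of all 6007 promoters. It was present 2 or more times in 14.6% of promoters of genes called lower, 2.38% of those called higher and 3.43% of all. The general stress list, in which Msn2 and Msn4 targets are common, held it in 83.9% of 31 promoters. These shares describe letters in a window and were not tested. GSY1, the largest fall, had no match in this window.

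Many ribosome assembly genes rose. Of 73 genes of the small-subunit processome and 40S assembly, 48 were higher with ATP and 0 lower, against 9.11% of all genes higher, and all 73 had a positive log2 fold change, with a median of 0.32. Of 70 factors of 60S assembly, 34 were higher and 0 lower, with a median of 0.27. The sizes were small and the replicates close. UTP6, a processome subunit, stood at 86.1, 89.6 and 88.1 CPM with ATP and at 53.7, 57.8 and 57.8 CPM without (log2 fold change 0.64, SE 0.052, adjusted p 0.000717). UTP15 rose by 0.72 (SE 0.061) and IMP3 by 0.59 (SE 0.053), both also processome subunits.

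Larger rises within these lists were those of NOP1 and REI1. NOP1, the fibrillarin that methylates ribosomal RNA, stood at 315, 395 and 300 CPM with ATP and at 173, 140 and 155 CPM without (log2 fold change 1.11, SE 0.12, adjusted p 0.00141). REI1, a late cytosolic 60S factor, stood at 81.7, 85.1 and 83 CPM with ATP and at 38.4, 41.2 and 41.7 CPM without (log2 fold change 1.04, SE 0.054, adjusted p 0.000223). The treated values of each gene lay entirely above the untreated ones. NOG2, a GTPase of 60S maturation, rose by 0.85 (SE 0.061), and SSF1, which takes part in early 60S assembly, by 0.68 (SE 0.056).

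These list counts rest on the estimate of spread. With all 12 libraries, 1 gene of each assembly list was called, NOP1 and REI1, and with untreated wild-type replicate 3 left out of that fit the counts were 49 and 34. Leaving out each NTT1 library in turn gave 32 to 46 genes for 40S and 23 to 41 for 60S assembly. Of 18 genes of RNA polymerase I and its factors, 6 were higher, against 9.11% of all genes, with a median of 0.23. RRN11 was far ahead of the shared subunit RPC19 (0.29, SE 0.057). The number higher was 3 without untreated replicate 1, 3 without treated replicate 2 and 2 without treated replicate 3. The largest subunit, RPA190, did not pass, at 0.053 (SE 0.1, adjusted p 0.763).

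Genes of cytosolic ribosomal proteins did not move with the assembly genes. Of 136 tested, 1 was higher and 0 lower (0.735% called, against 15.6% of all genes), and the median was 0.0071. The gene called, RPL28, stood at 32, 24.7 and 30.3 CPM with ATP and at 21.7, 20.1 and 16.3 CPM without, a low level for a ribosomal protein. Its adjusted p was 0.0603 without untreated replicate 2, 0.0937 without treated replicate 1 and 0.09 without treated replicate 3. Leaving out untreated replicate 3 gave 6 ribosomal protein genes lower and 1 higher. Of 19 RNA polymerase III genes, 1 was higher, the subunit RPC82 (0.26, SE 0.047), and 1 was lower, the repressor MAF1 (-0.34, SE 0.065). The share called was 10.5%, against 15.6% of all genes and so near the background. Of 34 translation factors, 4 were higher, 11.8% called against 15.6% of all genes and so near the background, led by the RNA helicase DED1 (0.67, SE 0.085) and the eIF3 subunit HCR1 (0.46, SE 0.059).

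Promoters of UTP6, NOG2 and VTS1 are shown because they carry the PAC element, common before ribosome assembly genes, and because these genes rose. PAC letters (CGATGAG, or CTCATCG on the other strand) are in capitals, and the windows again span bases 300 to 91 before the start codon from RefSeq R64. They lie at chrIV:1358993-1359202 (minus strand) for UTP6, chrXIV:723203-723412 (minus strand) for NOG2 and chrXV:1010889-1011098 (plus strand) for VTS1.
UTP6: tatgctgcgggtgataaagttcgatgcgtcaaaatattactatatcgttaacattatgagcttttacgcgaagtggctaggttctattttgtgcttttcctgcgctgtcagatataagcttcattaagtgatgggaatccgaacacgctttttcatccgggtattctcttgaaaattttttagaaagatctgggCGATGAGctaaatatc
NOG2: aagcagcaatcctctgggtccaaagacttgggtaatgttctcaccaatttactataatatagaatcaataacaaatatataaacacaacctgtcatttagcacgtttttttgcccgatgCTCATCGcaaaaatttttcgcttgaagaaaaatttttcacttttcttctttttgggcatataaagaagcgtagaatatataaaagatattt
VTS1: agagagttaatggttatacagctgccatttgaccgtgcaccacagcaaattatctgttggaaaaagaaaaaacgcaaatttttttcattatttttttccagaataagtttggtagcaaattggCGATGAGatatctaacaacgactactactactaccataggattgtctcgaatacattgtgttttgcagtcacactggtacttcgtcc
The match lies 106 bases before the start codon in UTP6, 181 in NOG2 and 177 in VTS1. On both strands of the 300-base windows, PAC was present in 22.3% of promoters of genes called higher, 3.13% of those called lower and 6.91% of all. It was present in 63% of the 73 promoters of the 40S assembly list and in 62.9% of the 70 of the 60S list. In the 136 promoters of ribosomal protein genes it was present in 0.735%. STRE was found in 11% and 11.4% of the promoters of the assembly lists.

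**Figure D3:**
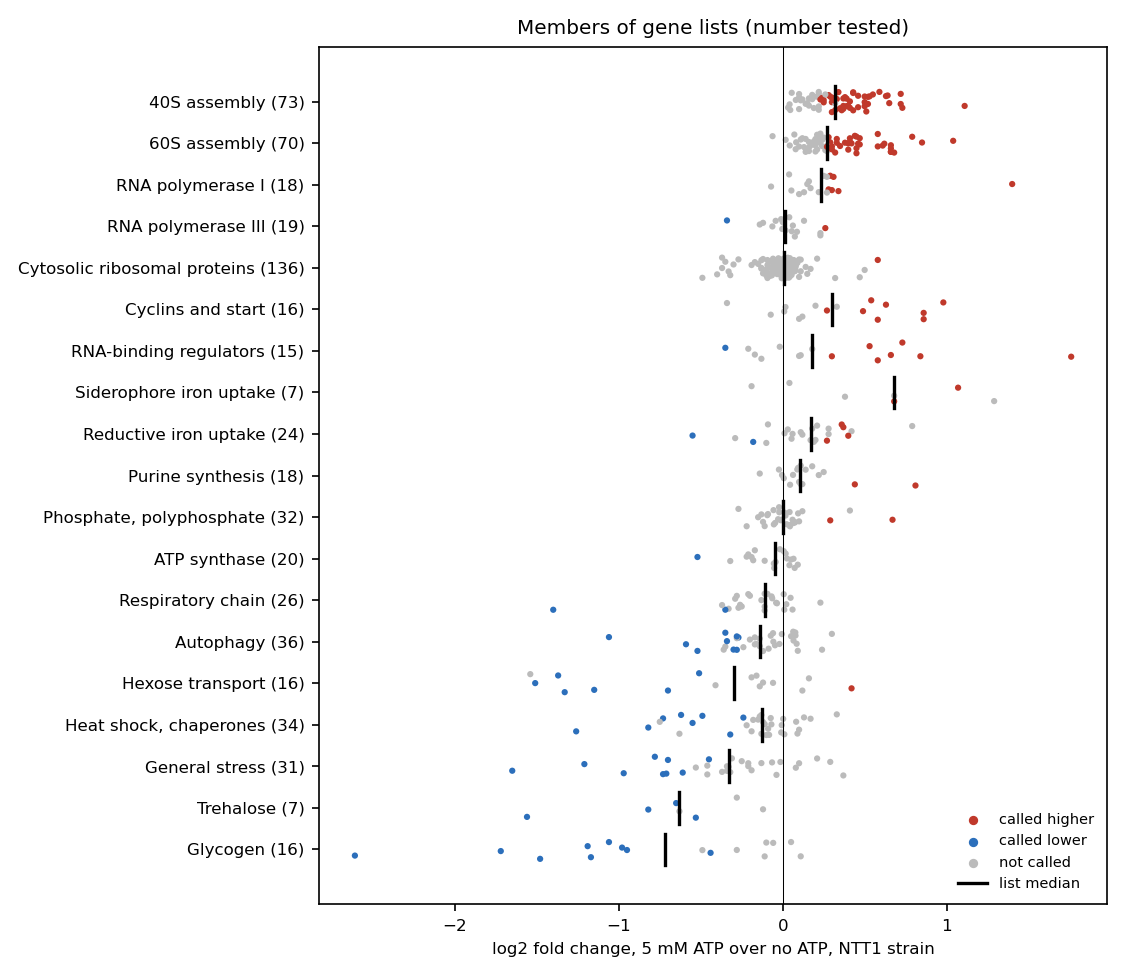
Log2 fold change (5 mM ATP over no ATP, NTT1 strain) of every tested member of 19 gene lists, with the number tested in parentheses. Points are genes, red where called higher, blue where called lower and grey where not called, and black bars are medians, at 0.32 for 40S assembly and -0.72 for glycogen.

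In the cyclic AMP and protein kinase A pathway, components moved in both directions. Of 21 genes, 6 were lower and 3 higher, 42.9% called against 15.6% of all genes. YAK1, a kinase that acts against protein kinase A, stood at 121, 143 and 116 CPM with ATP and 285, 244 and 229 CPM without. The treated values lay well below the untreated ones, and YAK1 fell by 1.00 on the log2 scale (SE 0.11, adjusted p 0.00141). TPK2, a catalytic subunit of protein kinase A, fell by 0.53 (SE 0.054), the small G protein RAS2 by 0.39 (SE 0.055) and the Gpr1-coupled G protein GPA2 by 0.37 (SE 0.057). The high-affinity phosphodiesterase PDE2, which removes cyclic AMP, rose by 0.60 (SE 0.087), beside the rise of RGS2. The adenylate cyclase CYR1 was at -0.042 (SE 0.094) and the regulatory subunit BCY1 at -0.17 (SE 0.079), neither past the threshold. YAK1, PDE2 and RGS2 were also called with all 12 libraries.

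The glucose transporters HXT4, HXT6 and HXT7 fell. Of 16 genes of hexose transport and sensing, 6 were lower and 1 higher, against 6.45% and 9.11% of all genes, with a median of -0.30. HXT4 stood at 330, 452 and 408 CPM with ATP and 1109, 938 and 941 CPM without (log2 fold change -1.33, SE 0.12, adjusted p 0.00107), with no overlap. HXT6 fell by 1.37 (SE 0.19), together with its near-identical copy HXT7, and the low-glucose sensor SNF3 by 0.70 (SE 0.11). HXT2 had a fold change as large, at -1.54 (SE 0.49), but did not pass (adjusted p 0.0727). Its values were 177, 641 and 287 CPM with ATP and 1519, 1108 and 596 CPM without, so treated replicate 2 overlapped the untreated group. The low-affinity transporter HXT1 was at 0.16 (SE 0.11, adjusted p 0.386). HXT4, HXT6, HXT7 and SNF3 were called with all 12 libraries as well.

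Of 22 genes of the SNF1 kinase and glucose repression, 5 were lower and 0 higher, against 6.45% of all genes lower. They include the repressor NRG1 (-0.93, SE 0.16) and ZNF1, a zinc-cluster factor adjacent to YFL051C (-1.65, SE 0.32). The number lower was 2 without untreated replicate 1, 2 without treated replicate 1, 3 without treated replicate 2 and 2 without treated replicate 3. The kinase gene SNF1 did not pass, at 0.30 (SE 0.1, adjusted p 0.0738). In glycolysis, PFK27, which makes the activator fructose-2,6-bisphosphate, rose by 1.02 (SE 0.11, adjusted p 0.00151), with 260, 217 and 261 CPM with ATP and 105, 122 and 137 CPM without. A further 5 genes of the 19 were lower, against 6.45% of all genes, among them GLK1 and the minor pyruvate kinase PYK2 (-0.52, SE 0.068). The number lower was 2 to 3 when any NTT1 library was left out.

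Genes of mitochondrial ATP production were called lower at about the share of all genes, 6.45%. Of 20 ATP synthase genes, 1 was lower, the stabilising factor STF2 (-0.52, SE 0.087), and 0 higher, with a median of -0.048. Without untreated replicate 3, 3 ATP synthase genes and 5 respiratory chain genes were lower. Of 26 respiratory chain genes, 2 were lower and 0 higher. Both were isoforms of the kind made at low oxygen. CYC7, a cytochrome c isoform, stood at 5.02, 5.55 and 6.85 CPM with ATP and 15.4, 15.5 and 14.9 CPM without (log2 fold change -1.40, SE 0.13, adjusted p 0.00107), and COX5B, an isoform of a cytochrome oxidase subunit, was at -0.35 (SE 0.059). Of 13 carriers of nucleotides and phosphate, 1 was lower, the copper and phosphate carrier PIC2 (-0.48, SE 0.11, adjusted p 0.0227, against 0.0733 without treated replicate 3). The main ADP/ATP carrier PET9 did not pass, at 0.032 (SE 0.13, adjusted p 0.904). Of 15 subunits of the vacuolar proton ATPase, 0 were called by edgeR or DESeq2, and 0 had an unadjusted p under 0.05.

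The shares called in purine synthesis and phosphate uptake lay near or below the 15.6% of all genes. Of 18 genes of purine synthesis, 2 were higher and 0 lower, a share of 11.1% that is near the background. BAS1, the activator of the ADE genes, rose by 0.44 (SE 0.074, adjusted p 0.00678). ADE3, a one-carbon enzyme, stood at 676, 690 and 590 CPM with ATP and 415, 270 and 434 CPM without (0.81, SE 0.17, adjusted p 0.0158), and its adjusted p was 0.0589 without treated replicate 1. ADE4, the first enzyme of the pathway, was at 0.045 (SE 0.11, adjusted p 0.835). The purine permease FCY2, which imports adenine, stood at 704, 686 and 734 CPM with ATP and 487, 508 and 499 CPM without (0.51, SE 0.056, adjusted p 0.00149). Its groups did not overlap, though with all 12 libraries its adjusted p was 0.161.

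Of 32 phosphate and polyphosphate genes, 2 were higher and 0 lower (6.25%), with a median of 0.00054. The number was 1 without untreated replicate 1, untreated replicate 2, treated replicate 1 or treated replicate 3. The vacuolar phosphate transporter PHO91 stood at 158, 166 and 157 CPM with ATP and 118, 88.3 and 94.8 CPM without (0.67, SE 0.10, adjusted p 0.00504). The phosphate-starvation markers PHO84, a high-affinity transporter, and PHO5, a secreted acid phosphatase, were at -0.021 (SE 0.14, adjusted p 0.94) and 0.072 (SE 0.12, adjusted p 0.727). PHO84 stood at 56.1, 61.3 and 65.6 CPM with ATP and 56, 53 and 76.7 CPM without, with the groups overlapping.

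Genes of siderophore iron uptake varied among replicates. Of 7 genes of siderophore iron uptake, 2 were higher and 0 lower, against 9.11% of all genes higher, with a median of 0.68. ARN1, a siderophore transporter, stood at 147, 67.6 and 122 CPM with ATP and 55.7, 47.5 and 56.8 CPM without (1.07, SE 0.25, adjusted p 0.0254), and the cell wall mannoprotein FIT3 rose by 0.68 (SE 0.19, adjusted p 0.0463) although its groups overlapped. The number called was 5 without treated replicate 2, the lowest of the treated libraries, and 0 without untreated replicate 1, untreated replicate 2, treated replicate 1 or treated replicate 3. FIT2 had 156, 48 and 135 CPM with ATP and 54.9, 40.6 and 43.3 CPM without, and did not pass (1.29, SE 0.38, adjusted p 0.0595). Of 14 zinc genes, 2 were higher and 0 lower, 14.3% called against 15.6% of all genes and so near the background. IZH1, a membrane protein gene of zinc balance, stood at 108, 113 and 106 CPM with ATP and 77, 74.7 and 71.5 CPM without (0.55, SE 0.053, adjusted p 0.00107), with no overlap, and the zinc transporter ZRG17 passed in 1 of the 6 fits with a library left out. The zinc-responsive ZPS1 did not pass, at 81.8, 17.5 and 25 CPM with ATP and 525, 199 and 27.1 CPM without (-2.60, SE 0.97, adjusted p 0.117). Its groups overlapped through untreated replicate 3. The vacuolar magnesium exporter MNR2 was the 1 gene of 5 magnesium transporters called (20%, against 15.6% of all genes), at -0.33 (SE 0.058, adjusted p 0.00806).

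Among 16 cyclins and regulators of cell cycle start, 8 were higher and 0 lower, against 9.11% of all genes higher, with a median of 0.30. Of the 8, 6 were called with all 12 libraries. SIC1, the inhibitor of Clb kinases, stood at 78.6, 76.5 and 76.3 CPM with ATP and 39.5, 34.6 and 42.9 CPM without (0.98, SE 0.08, adjusted p 0.000717). The mitotic cyclins CLB1 and CLB2 rose by 0.63 (SE 0.1) and 0.58 (SE 0.084), the G1 cyclin CLN2 by 0.54 (SE 0.082) and FAR1, an inhibitor of G1 cyclin kinases, by 0.49 (SE 0.076). The rises thus covered activators and inhibitors of division. Without treated replicate 1, 5 genes of the list were called.

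Of 15 RNA-binding regulators, 7 were higher and 1 lower, 53.3% called against 15.6% of all genes. Beside VTS1 the rises included PUF4 (0.84, SE 0.12), WHI4 (0.73, SE 0.1) and PUF6, a translational repressor that also takes part in 60S assembly (0.66, SE 0.067). Of 37 genes of the cortical actin patch, 5 were higher and 3 lower, 21.6% called against 15.6% of all genes. After ABP1, the largest rise was that of BBC1, at 67, 79 and 60.1 CPM with ATP and 34.9, 23.3 and 36.4 CPM without (1.12, SE 0.17, adjusted p 0.00455). The endocytic scaffold PAN1 rose by 0.61 (SE 0.081), and the bundling protein fimbrin, SAC6, fell by 0.33 (SE 0.058). Without treated replicate 3, 3 patch genes were higher.

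Of 35 cell wall genes, 6 were higher and 1 lower, 20% called against 15.6% of all genes. The number higher was 3 without untreated replicate 1, untreated replicate 2, treated replicate 1 or treated replicate 3. The mannoprotein HSP150 stood at 2816, 2953 and 2880 CPM with ATP and 1607, 1010 and 1658 CPM without (1.02, SE 0.17, adjusted p 0.00705). Its homologue CIS3 rose by 0.94 (SE 0.14), and the glucanase-like SCW11, made in daughter cells, by 0.65 (SE 0.084). These 3 were called with all 12 libraries. In multidrug transport, AQR1, an exporter of amino acids and weak acids, rose by 1.07 (SE 0.17), whereas the polyamine exporter TPO4 fell by 1.27 (SE 0.12).

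Genes that rose more often held a stretch rich in G and C, which was described and not tested. For each of 5766 genes with a span in the reference, the densest 100-base window was found. A longer gene holds more windows, so this measure also depends on length. Genes called higher had a median length of 1620 bases, against 1300 for those called lower and 1227 for all. Their median GC over the whole span was 40.6%, against 39.8% for those called lower and 39.6% for all. Of 352 genes whose densest window held at least 58% GC, 25% were called higher and 5.97% lower. Of 560 genes whose densest window held under 46% GC, 5.54% were called higher and 6.25% lower. Windows of at least 55% GC were found in 8 of the 11 largest rises with a span and in 4 of the 12 largest falls, against 21.5% of all genes.

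The windows of VTS1 (chrXV:1011408-1011507, plus strand), ABP1 (chrIII:266579-266678, plus strand) and GAT1 (chrVI:96903-97002, plus strand) are shown because these genes rose and the windows lie within their coding sequence. Letters are from RefSeq R64, with G and C in capitals.
VTS1: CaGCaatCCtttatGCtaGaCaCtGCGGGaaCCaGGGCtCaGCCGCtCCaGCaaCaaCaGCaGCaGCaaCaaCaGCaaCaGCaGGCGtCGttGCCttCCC
ABP1: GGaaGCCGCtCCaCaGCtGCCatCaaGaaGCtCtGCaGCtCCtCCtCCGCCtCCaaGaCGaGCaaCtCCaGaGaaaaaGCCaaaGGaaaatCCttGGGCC
GAT1: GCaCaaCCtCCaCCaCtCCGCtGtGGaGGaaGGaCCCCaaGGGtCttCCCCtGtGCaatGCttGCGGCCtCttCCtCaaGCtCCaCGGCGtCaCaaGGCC
Of the 100 bases, 58 were G or C in VTS1, 57 in ABP1 and 63 in GAT1. Over the 352 genes with the densest windows, the median log2 deviation from each gene's mean was 0.042, 0.049 and 0.043 in the treated libraries and -0.016, -0.086 and -0.025 in the untreated ones, with untreated replicate 2 lowest. When an offset for gene length and densest window was added to the fit, chosen after seeing the data, 952 genes were called, 506 higher and 446 lower. Of the 931 calls with a span, 827 were called with it. In genes with a window of at least 58% GC, 19.9% were then called higher and 11.4% lower. In the 560 genes with windows under 46% GC, the medians were -0.014, -0.018 and -0.025 in the treated libraries. They were -0.016, 0.075 and 0.0028 in the untreated ones, so the groups overlapped. At 58% GC and over, the median log2 fold change was 0.059 in the NTT1 strain and 0.027 in wild type (12-library fit). Under 46% GC it was -0.053 in the NTT1 strain and 0.018 in wild type. These medians are small, and the part of sequence content in the single rises beyond this offset was not tested.

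**Figure D4:**
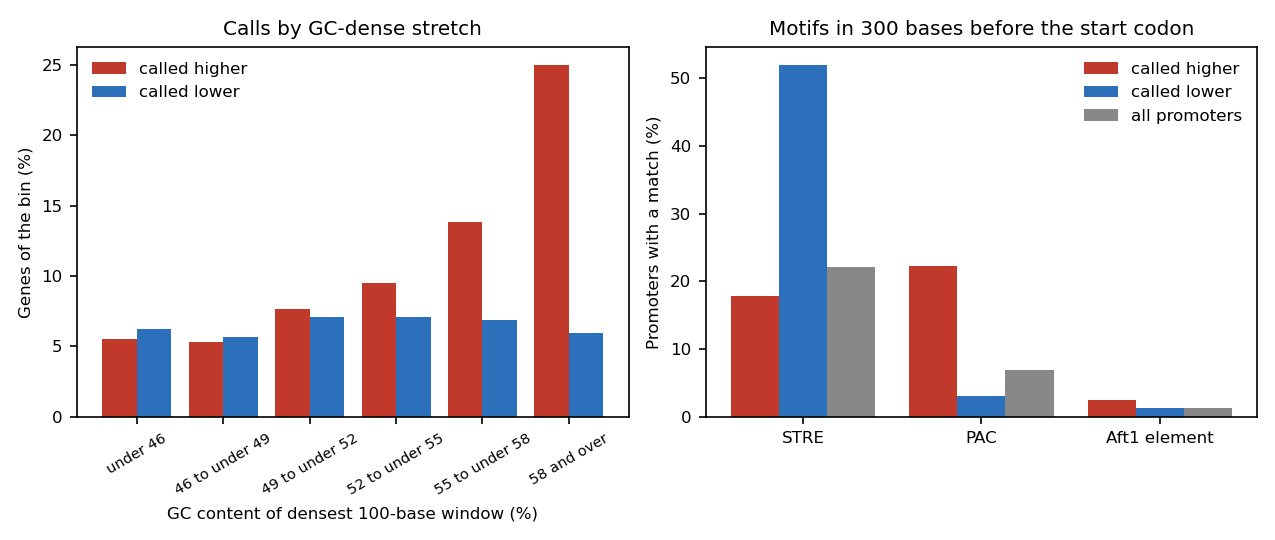
Left, share of genes (%) called higher (red) or lower (blue) by the GC content of the densest 100-base window (%), from 5.54% higher under 46% GC to 25% higher at 58% and over. Right, share of promoters (%) with a match to STRE, PAC or the Aft1 element in the 300 bases before the start codon, for genes called higher (red), called lower (blue) and all promoters (grey); STRE is at 52% in genes called lower and PAC at 22.3% in genes called higher.

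The same treatment of the wild-type strain, which shares no library with the NTT1 comparison, was used to ask whether these changes were particular to the NTT1 strain. No gene of 6157 passed for the difference of the ATP effects in edgeR's 12-library fit. The count was 0, with a smallest adjusted p of 0.388 and 365 genes at an unadjusted p under 0.05 (5.93%). DESeq2 called 6, and edgeR called 106 when untreated wild-type replicate 3 was left out. Of the 950 genes called in the NTT1 strain, 916 had the same sign in wild type and 426 were called there as well, where 784 genes were called in all (12.7%), 334 of them higher (5.42%). The share of all genes tested with the same sign in both strains was not counted.

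Side by side, RGS2 changed by 1.88 in the NTT1 strain and 1.74 in wild type in the 12-library fit, and VTS1 by 1.76 and 1.52. GSY1 was at -2.62 in the NTT1 strain and -2.87 in wild type. ABP1 was at 1.56 in the NTT1 strain and 0.82 in wild type, a difference of 0.74 (SE 0.36, adjusted p 0.857), and THR1 was at 1.2 and 0.44, a difference of 0.77 (SE 0.17, adjusted p 0.559). Of the 24 largest changes, snR37 was the 1 gene with opposite signs, at 1.5 in the NTT1 strain and -0.83 in wild type, with an adjusted p of 0.559 for the difference. The difference for THR1 was large beside its SE but did not pass after adjustment across genes, and that for ABP1 had a wider SE. Equal effects were not shown for these genes either. The median of the 40S assembly list was 0.32 in the NTT1 strain and 0.40 in wild type, and that of the 60S list was 0.26 in the NTT1 strain and 0.36 in wild type. For ATP synthase genes the median was -0.05 in the NTT1 strain and 0.29 in wild type, and these list medians were not tested against each other.

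**Figure D5:**
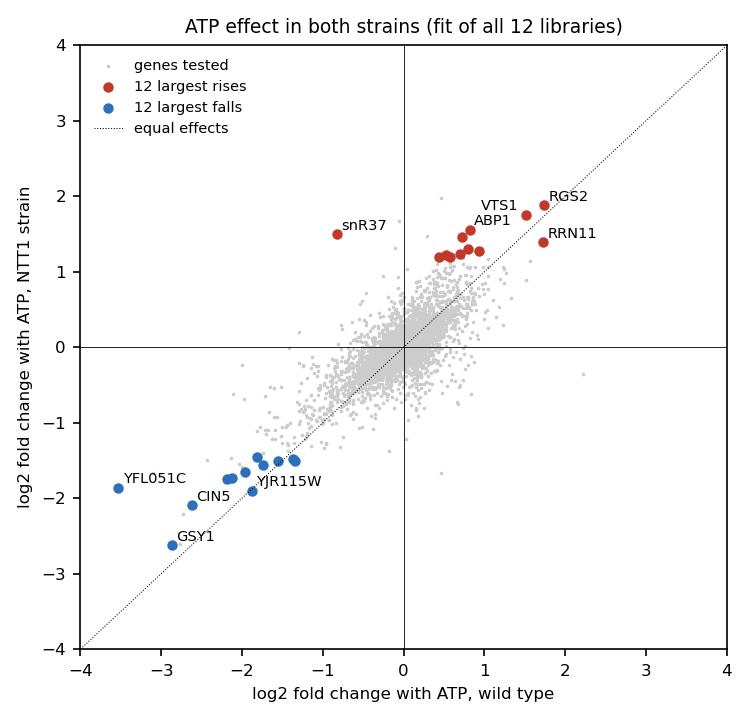
Log2 fold change with ATP in the NTT1 strain (vertical axis) against that in wild type (horizontal axis), both from the fit of all 12 libraries. Grey points are all genes tested, red and blue points the 12 largest rises and falls in the NTT1 strain, and the dotted line marks equal effects; snR37, at 1.5 and -0.83, is the coloured point away from the others' quadrants.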

How the data were processed

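Total RNA of 12 cultures was sequenced, 3 in each of 4 groups. Per the labels' protocols, RNA came from a Zymo fungal and bacterial kit, and an Illumina TruSeq RNA kit was used for the libraries. The authors deposited raw gene counts, whole numbers with a total of their own in each library. The submitters' processing notes name HISAT2 2.0.5, featureCounts 1.5.0, DESeq2 1.20.0 and build R64. The settings, the annotation and the use of strand are not given in the sources used here. The table held 7127 features, 311 of them at 0 throughout, and 6023 matched the RefSeq gene table of R64 by locus tag. The labels name separate biological replicates.

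The counts of the 6 NTT1 libraries were fitted with edgeR 4.0.16 in R 4.3.3 (quasi-likelihood F-test, TMM factors, filterByExpr with a minimum count of 10), with Benjamini-Hochberg adjustment across the 6105 genes tested and a threshold of 0.05. Fold changes use a prior count of 0.125, and SEs were derived from the F statistic and are approximate. CPM are TMM-scaled. The difference between strains was tested in a fit of all 12 libraries. In simulated counts for this comparison, edgeR recovered 93.5% of 200 genes changed by a log2 fold change of 1 among 6082, and 5.08% of its calls were unchanged genes. DESeq2 1.42.0, other scalings, other filters, a replicate block and leaving out single libraries were tried.

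Named genes are the 12 largest rises and falls called in both fits, averaging 20 counts or more and with groups that do not overlap, then up to 3 genes of smallest p in each gene list, and other list members where their role is described. The comparison, the gene lists, the tests and the motifs were chosen with earlier results of these data known. Lists are described by counts and medians and were not tested as sets, and some share genes. Sampling error weighs most at low counts such as those of snR37. P-values weigh the difference between groups against the spread between cultures, which in the 12-library fit includes that of the wild-type cultures.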

Additional observations from a re-analysis of the deposited data

How the results depend on the processing

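The fit of all 12 libraries gave 275 genes, 183 higher and 92 lower, and 67 past the fold-change minimum. That fit without untreated wild-type replicate 3 gave 1030. Leaving out each NTT1 library in turn gave 537 to 942 genes, 322 to 525 higher and 215 to 417 lower, and 71 to 116 past the fold-change minimum. DESeq2 gave 1051 genes, upper-quartile factors 985, size factors 933, no filter 929 and a stricter filter 921. The gene-length and GC offset gave 952. Of 131 named genes, 64 lost their call with all 12 libraries, 31 without treated replicate 3, 29 without treated replicate 1, 24 without untreated replicate 2 and 7 with the offset. No direction was reversed under any alternative run, but all of these runs draw on the same NTT1 libraries. For the difference between strains, DESeq2 called 6 genes, and leaving out each of the 12 libraries in turn gave 0 to 106.

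Whether replicate numbers pair the cultures was not settled. Deviations of same-numbered treated and untreated libraries correlated at -0.00466, 0.127 and 0.153 across genes. Those of differently numbered libraries correlated at -0.186 to 0.0974. The fit with the replicate number as a block called 881 genes, and 8 of the 131 named genes lost their call in it; for the difference between strains it called 0. With 3 cultures a group, small changes are the least certain, and genes of few counts such as snR37 are limited by depth.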

Other observations

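A few groups outside the main account were also measured in the NTT1 strain. Of 36 autophagy genes, 9 were lower with ATP and 0 higher, 25% called against 6.45% of all genes called lower, led by the nuclear autophagy receptor ATG39 (-1.06, SE 0.14, adjusted p 0.00287) and ATG8, the ubiquitin-like protein of the autophagosome membrane (-0.59, SE 0.1, adjusted p 0.00787). With all 12 libraries 0 of the 9 were called, and the number was 5 without untreated replicate 3, 4 without treated replicate 2 and 3 without treated replicate 3. Of 32 proteasome subunits, 0 were called by edgeR or DESeq2 and 2 had an unadjusted p under 0.05, with log2 fold changes between -0.16 and 0.07. With upper-quartile scaling 2 of them were lower. The calmodulin-dependent kinase gene CMK1 fell by 0.72 (SE 0.13, adjusted p 0.00954). HRK1, a kinase that activates the plasma membrane proton pump, was higher (0.78, SE 0.1, adjusted p 0.00235), as was NCP1, the reductase partner of ergosterol enzymes (0.75, SE 0.1, adjusted p 0.0033). RCK1, a kinase of the stress response, had a fall of -2.20 (SE 0.58, adjusted p 0.039), at 22.2, 105 and 52.4 CPM with ATP and 411, 291 and 126 CPM without. RCK1 passed in 2 of the 6 fits with a library left out and not with all 12, and it was picked out after its values were seen.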
